A study of Homo sapiens with 6 samples.

Results

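The comparison described here is the late phase of c-Myc release in P493-6 cells, that is, 24 h against 1 h after a repressed c-Myc transgene was switched on. It rests on 4 of the 6 arrays of the series, 2 of the group titled mid-Myc (1 h) and 2 titled high-Myc (24 h). The other 2 arrays, titled low-Myc (0 h), are used only to say where a gene stood before release. All human probe sets that map to 1 gene were read, and 12198 genes bright enough to test were kept. P493-6 is a human B cell line, labelled as a B-cell lymphoma line, that carries a c-Myc transgene silenced by tetracycline. All 3 groups carry that transgene, all were grown in RPMI 1640 with fetal bovine serum, and all were held with tetracycline first. They differ in the time since c-Myc expression was released, which was 0, 1 or 24 h. The line is a single established line, and the design text calls the 2 arrays of each group biological duplicates. For mid-Myc, 1 protocol field of the labels gives 0 h and another 1 h. The 1 h was used because the labels describe the group as having a moderate c-Myc level. The mid-Myc arrays carry sample numbers apart from those of the other groups, so they may have been made separately. A difference between such batches and a difference between 1 h and 24 h cannot be told apart.

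MYC is a transcription factor that pairs with MAX and binds DNA at E-box sequences, and its known targets include genes for ribosome assembly, nucleotide synthesis and entry into the cell cycle. Immediate early genes, such as FOS, EGR1 and the NR4A receptors, are transcribed within minutes of a stimulus from factors already present in the cell, and their short-lived mRNAs decay quickly. In resting B cells a separate set of genes, including CDK inhibitors, KLF and FOXO factors and antigen receptor components, marks the state out of which growth starts.

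Each value is an Affymetrix probe set intensity, read on 2 scales after taking log2. On the per-cell scale each array was corrected through the 100 probe sets for ERCC RNAs, synthetic transcripts added in proportion to cell number. For the equal-median scale the median human probe set of every array was set to the same value, so that values are shares of the RNA rather than amounts per cell. A gene was called where its adjusted p from limma was under 0.05. The ERCC probe sets of middle intensity (100 to 4000) were 1.91-fold brighter at 1 h than at 24 h in the deposited values. After correction their median difference was -0.08 log2, and that of the 13 probe sets above 4000 was 0.07. The 2 arrays of a group correlated at r = 0.996 across genes, at 1 h and at 24 h alike. The ratio of 3' to 5' probe sets of ACTB, a sign of RNA integrity, was 3.06 and 2.88 at 1 h and 3.67 and 3.44 at 24 h, and its part in the differences below was not tested. With RNA from whole cultures, fewer cells expressing a gene and less RNA per cell cannot be told apart. The p-values measure the spread between duplicates, with the spread of each gene stabilised by that of all genes.

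Most genes read higher per cell at 24 h than at 1 h. Per cell, 9978 of the 12198 genes (81.8%) were higher at 24 h than at 1 h and 791 (6.48%) were lower, with a median change of 0.72 log2, or 1.65-fold. By at least 2-fold, 4021 genes were higher (33%) and 115 lower (0.943%). At equal medians the calls were nearly balanced, with 4059 genes higher (33.3%), 3775 lower (30.9%) and a median of 0.02. By at least 2-fold, 1104 were higher on that scale (9.05%) and 779 lower (6.39%). All 4059 genes that were higher at equal medians were also higher per cell, and all 791 genes lower per cell were also lower at equal medians. Between them lie 1939 genes (15.9%) that were lower as a share of the RNA but higher per cell, and 1045 (8.57%) that were lower as a share and not called per cell. The per-cell array medians over tested genes were 7.21 and 7.21 at 1 h and 8.13 and 8.13 at 24 h. Their difference of 0.92 log2 had an exact two-sided permutation p of 0.333, the smallest that 2 arrays against 2 can give. The median per-cell change over 10 groups of genes by intensity ranged from 0.50 log2 in the dimmest to 0.94 in group 8 and 0.65 in the brightest. Background probe sets bright enough to pass the filter, 7 of 23, also read 0.52 to 1.11 log2 higher per cell. That range holds the median of 0.72 over tested genes. The brightest background probe set averaged 697 and the next 194. As deposited, the 23 differed between 1 h and 24 h by a mean of 0.006 log2. The per-cell change of a gene at such intensities therefore holds background as well as transcript, and the parts were not separated.

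**Figure D1:**
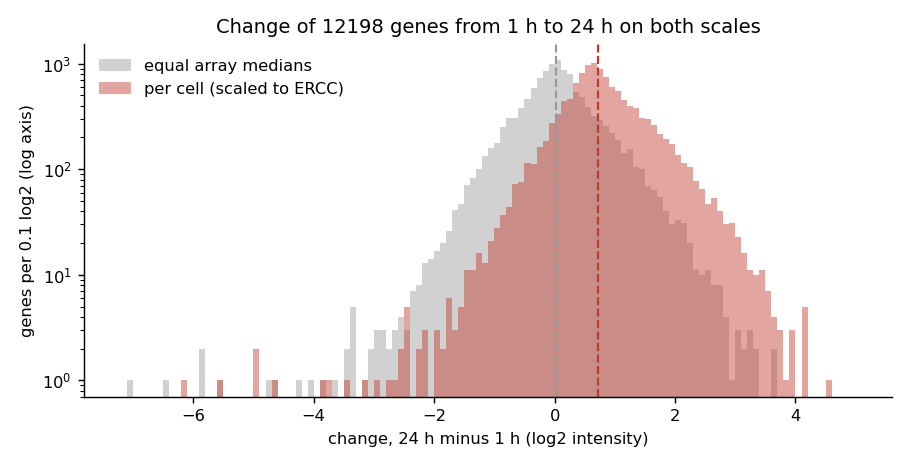
Histogram of the change from 1 h to 24 h over the 12198 tested genes, in genes per 0.1 log2 (log axis), at equal array medians (grey) and per cell (red), with dashed lines at the medians. The per-cell median lies at 0.72 log2 and the equal-median one at 0.02, and the left tail reaches further from the centre than the right on both scales.

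MYC itself was called higher at 24 h than at 1 h on both scales. Its 1 probe set read 10472 and 10279 at 0 h, 10031 and 9941 at 1 h and 11888 and 11979 at 24 h, which was 0.83 log2 higher per cell and 0.25 higher at equal medians from 1 h to 24 h (limma adjusted p = 1.76e-09 and 7.37e-06). The 1 h arrays lay slightly below the 0 h arrays in deposited intensity, unlike the order of their titles. At equal medians MYC was 0.09 log2 higher at 1 h than at 0 h, where the median of all genes was also 0.09. The 1 h and 24 h groups did not overlap. From 1 h to 24 h the medians over all genes were 0.72 log2 per cell and 0.02 at equal medians. MYC read in the bright range, where ERCC probe sets above 4000 differed by -0.50 log2 in the deposited values, against -0.93 at 100 to 4000. The part of this in the size of the MYC change was not tested. The sources used here do not say if the probe set sees the transgene or the gene of the cell. Its partner MAX was 0.32 log2 lower as a share and 0.56 higher per cell. Among the antagonists that compete for MAX, MXI1 was 1.01 log2 higher at equal medians, while MXD4 and MXD1 were 1.16 and 1.09 lower.

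The largest losses were in immediate early genes. At equal medians 30 of the 34 tested members were lower at 24 h and 1 was higher, against 30.9% and 33.3% of all genes, with a median of -1.57 log2 against 0.02. Per cell 23 were lower and 8 higher, against 6.48% and 81.8% of all genes, with a median of -0.82. From 0 to 1 h the same list had a median of 0.38 at equal medians, with 22 higher and 2 lower against 25.7% and 3.39% of all genes. First-hour counts at equal medians depend on the scaling: over all genes they were 3139 higher and 414 lower, but 955 and 1195 with quantile normalization, 1053 and 1034 with cyclic loess and 1131 and 1489 as deposited. For the immediate early genes these 3 settings each gave 17 higher and 3 lower. The early and late comparisons share the 1 h arrays, so their values are given side by side. They are related only where the contrast of the late with the early change, fitted to all 6 arrays, is named. By 24 h, 28 of the 34 stood below their 0 h level at equal medians and 2 above, against 26% and 37.7% of all genes. Per cell 17 stood below it and 13 above, against 2.47% and 91%. The 24 h arrays did not overlap the 1 h arrays in 32 members below and 1 above at equal medians, against 38.4% and 41.3% of all genes. Per cell this held for 23 below and 9 above, against 7.98% and 86.4%.

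RGS2, an inhibitor of G protein signalling, read 1897 and 1823 at 0 h, 4743 and 4616 at 1 h and 34.4 and 35.8 at 24 h. The 24 h arrays lay 7.07 log2 below the 1 h arrays at equal medians and 6.16 below them per cell. FOS, a subunit of the AP-1 transcription factor, read 4981 and 4899 at 0 h, 3335 and 3497 at 1 h and 35.6 and 40.8 at 24 h and fell by 5.60 log2 per cell. The nuclear receptor NR4A2 read 364 and 359.8 at 0 h, 1305 and 1354 at 1 h and 20.4 and 27.4 at 24 h, and fell by 4.96 log2 per cell. Its relative NR4A3 read 839 and 772 at 0 h, 1278 and 1337 at 1 h and 27.3 and 20.3 at 24 h, and fell by 4.92. For these 4 genes the 24 h values lie near or below the test filter of 33.8 and within the range of background probe sets, which reached 194 apart from 1 at 697. Readings of NR4A1, EGR1, DUSP1 and other genes below that are under 194 lie in the same range, so a change from or to such a level is that of the reading, background included. The part of the array background in the size of these changes was not tested. RGS2, NR4A2 and NR4A3 were higher at 1 h than at 0 h, while FOS was already 0.38 log2 lower at 1 h at equal medians.

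NR4A1, a receptor of the same family, gave the largest fall per cell among genes whose dimmer group averaged at least 64. It read 2011 and 2035 at 0 h, 3630.4 and 3698 at 1 h and 80.2 and 79.8 at 24 h. It fell by 4.63 ± 0.04 log2 per cell (SE, n = 2 arrays a group; limma adjusted p = 5.8e-12) and 5.53 ± 0.05 at equal medians. CD69, an early activation antigen that holds lymphocytes in tissue, read 3275 and 3466 at 0 h, 3211 and 3169 at 1 h and 135 and 108 at 24 h and fell by 3.85 log2 per cell. It was level from 0 to 1 h (0.07 log2, not called), so its loss fell in the late interval. EGR1, a zinc finger factor, read 2149.7 and 2039 at 0 h, 1199.8 and 1178 at 1 h and 43.5 and 49.3 at 24 h. It was 0.67 log2 lower at 1 h than at 0 h at equal medians, and its 24 h readings, near the filter, were a further 4.69 lower. DUSP1, a phosphatase that switches off MAP kinases, read 590.1 and 536 at 0 h, 728 and 689.6 at 1 h and 65.8 and 71.5 at 24 h and fell by 2.49 per cell. All 5 further probe sets of NR4A1 and of EGR1 moved the same way as the one used. The member that went against the rest was IER3, a stress response gene, at 66.3 and 65.4 at 0 h, 58.3 and 55.6 at 1 h and 105 and 101 at 24 h, which is 0.84 log2 higher at equal medians.

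**Figure D2:**
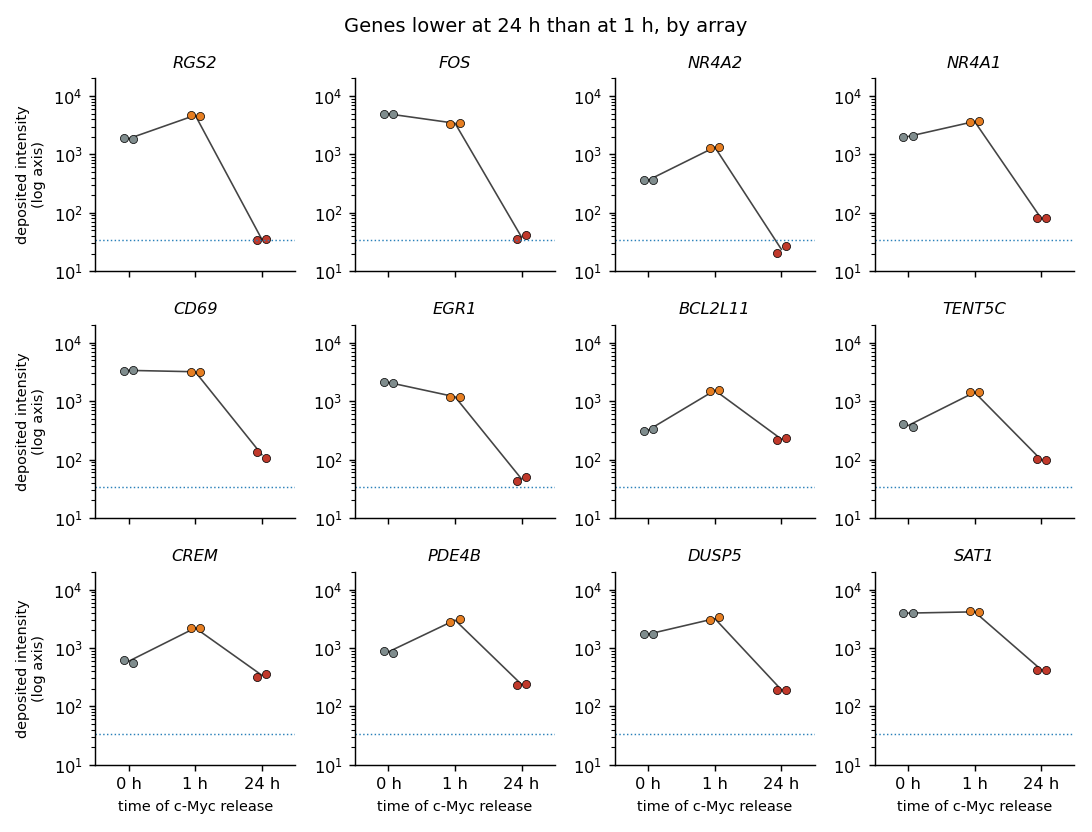
Deposited intensity (log axis) of 12 genes lower at 24 h than at 1 h, for each array at 0 h (grey), 1 h (orange) and 24 h (red), with a line through the geometric means and a dotted line at the filter intensity of 33.8. The 24 h arrays lie below the 1 h arrays in every panel, and RGS2, FOS and NR4A2 end near or under the dotted line.

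The 10 genes that had risen most in the first hour were all lower at 24 h than at 1 h at equal medians, and 9 of them also per cell. They were picked for their rise to 1 h, which uses the same 1 h arrays, so what became of them is a description without a test. BCL2L11, which encodes the pro-apoptotic protein BIM, read 309.5 and 329 at 0 h, 1512 and 1560.1 at 1 h and 216 and 231 at 24 h, and its loss of 2.79 log2 at equal medians was in the same direction in all 9 further probe sets. Relative to 0 h it ended -0.38 log2 at equal medians and 0.76 per cell. TENT5C, a poly(A) polymerase that lengthens mRNA tails, read 409 and 355 at 0 h, 1423 and 1415 at 1 h and 101 and 96.9 at 24 h. CREM, a repressor and activator of cAMP-driven transcription, read 629 and 558 at 0 h, 2180.3 and 2229 at 1 h and 321 and 363 at 24 h, and PDE4B, which breaks cAMP down, read 899 and 819 at 0 h, 2831 and 3189 at 1 h and 236 and 237 at 24 h. SIK1, a kinase that restrains the cAMP response, read 609 and 549 at 0 h, 1726 and 1683 at 1 h and 189 and 192 at 24 h. TENT5C, PDE4B, SIK1 and NR4A2 ended below their 0 h level on both scales, the first of them by -1.81 log2 at equal medians and -0.67 per cell.

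For CREM the 24 h level was -0.66 log2 against 0 h at equal medians and 0.47 per cell. PFKFB3, which makes the activator of phosphofructokinase, read 408 and 426 at 0 h, 1175 and 1162 at 1 h and 393 and 388 at 24 h, so it stood at its starting share at 24 h (0.04 log2 against 0 h, not called). PER1, a clock repressor, read 57.3 and 58.5 at 0 h, 154 and 155 at 1 h and 51.1 and 47.9 at 24 h and also stood -0.09 log2 from its starting share. LDLRAD4, an inhibitor of TGF-beta signalling, read 123 and 121 at 0 h, 346 and 341 at 1 h and 97.9 and 97.8 at 24 h. KLHL15, an adaptor for ubiquitin ligation, was the exception that kept most of its rise, at 140.4 and 129.8 at 0 h, 393 and 399 at 1 h and 264 and 267 at 24 h, or 1.12 log2 above 0 h at equal medians. Its change from 1 h was -0.59 at equal medians and 0.28 per cell, and the per-cell direction turned with 1 ERCC factor per array.

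Feedback inhibitors of MAP kinase signalling were lower too. Of 8 tested MAPK feedback genes, 6 were lower and 0 higher at equal medians (median -1.06 log2), against 30.9% and 33.3% of all genes. Per cell 4 were lower and 3 higher, against 6.48% and 81.8%. DUSP5, an ERK phosphatase of the nucleus, read 1725 and 1724 at 0 h, 3053 and 3326 at 1 h and 189 and 194 at 24 h and fell by 3.18 log2 per cell. SPRY2, an inhibitor of receptor tyrosine kinase signalling, read 195 and 184 at 0 h, 344 and 316 at 1 h and 62.7 and 61.8 at 24 h, and the phosphatase DUSP4 read 159 and 159 at 0 h, 324 and 307 at 1 h and 102 and 100.1 at 24 h. All 3 were higher at 1 h than at 0 h and lower at 24 h than at 0 h in deposited intensity. Of 13 tested cAMP response genes, 11 were lower and 2 higher at equal medians, though with a median of -0.53 log2. Per cell 8 were higher and 3 lower, or 4 and 5 with 1 ERCC factor per array. The large changes were those of PDE4B, SIK1 and CREM. The 2 that were higher as a share were the kinase genes SIK2 (0.50 log2) and PRKACB (0.45).

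Targets of the glucocorticoid receptor, which restrain growth in lymphocytes, fell as a group apart from 2. At equal medians 10 of 12 tested members were lower and 2 higher (median -1.53 log2), against 30.9% and 33.3% of all genes. Per cell 9 were lower and 3 higher, against 6.48% and 81.8%. TSC22D3, an anti-inflammatory leucine zipper protein, read 1630.3 and 1639 at 0 h, 2008 and 2034 at 1 h and 268 and 292 at 24 h. The chemokine receptor CXCR4 read 1088 and 922 at 0 h, 1856 and 1776 at 1 h and 296 and 273 at 24 h, and DDIT4, an inhibitor of mTORC1, read 511 and 496 at 0 h, 942 and 814 at 1 h and 225 and 239 at 24 h. TXNIP, which restrains glucose uptake, read 6919.8 and 6942 at 0 h, 6327 and 6302 at 1 h and 1989 and 2041 at 24 h. FKBP5, a chaperone of the receptor and itself a classic target, went the other way, at 505 and 489 at 0 h, 484 and 439 at 1 h and 1094 and 1092 at 24 h, or 1.24 log2 higher at equal medians. IL7R also differed, at 0.54 log2 but in the dim range, with 46.8 and 49.4 at 1 h and 68.3 and 72.1 at 24 h. Of 12 tested clock genes 5 were lower and 5 higher at equal medians, against 30.9% and 33.3% of all genes, and per cell 3 were lower and 8 higher. NFIL3 was 2.55 log2 lower, while PER2 was 1.19 and TEF 1.07 log2 higher.

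The remaining genes among the 15 largest falls come from different pathways. SAT1, which acetylates polyamines for export and breakdown, read 3984 and 3927 at 0 h, 4249 and 4066 at 1 h and 423 and 426 at 24 h and fell by 2.49 log2 per cell. GPR183, a receptor for oxysterols that positions B cells in follicles, read 1973 and 1919 at 0 h, 3337 and 3533 at 1 h and 349 and 324 at 24 h. CCL3, a chemokine made by activated B cells, read 603 and 567 at 0 h, 819.5 and 764 at 1 h and 69.7 and 83.5 at 24 h. The host transcript of a microRNA, MIR22HG, read 858 and 815 at 0 h, 1065 and 1034 at 1 h and 89.3 and 117 at 24 h. ZBP1, a sensor of Z-form nucleic acids induced by interferon, read 799 and 784 at 0 h, 966 and 1003 at 1 h and 118 and 117 at 24 h. RUNDC2A read 1029.7 and 1144 at 0 h, 739 and 752 at 1 h and 66.2 and 72.7 at 24 h and MYL4, a myosin light chain, 695 and 658 at 0 h, 695 and 697 at 1 h and 90.7 and 99.8 at 24 h. Across the 15 genes the per-cell changes ran from -4.63 to -1.98 log2, and the largest adjusted p from limma was 1.04e-08. All 15 stood below their 0 h level at 24 h on both scales, against 2.47% of all genes per cell and 26% at equal medians. They were picked with the same 24 h arrays, so that count is a description without a test. At 1 h, 12 of the 15 were higher than at 0 h and 1, RUNDC2A, lower at equal medians. Over all genes these shares were 25.7% and 3.39%. This is again a description that shares the 1 h arrays.

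Factors tied to the resting state were lower as well. Of 30 tested CDK inhibitors and quiescence factors, 22 were lower and 2 higher at equal medians, against 30.9% and 33.3% of all genes. The list median was -0.91 log2. Per cell 13 were lower and 9 higher, against 6.48% and 81.8%. YPEL5, of a family of zinc-binding proteins, read 2038 and 1993 at 0 h, 2674 and 2611 at 1 h and 323 and 320.1 at 24 h. ARRDC4, an arrestin-like protein controlled together with TXNIP by glucose, read 320.0 and 316 at 0 h, 674 and 696 at 1 h and 115 and 133 at 24 h. The CDK4 and CDK6 inhibitor CDKN2D read 517 and 486 at 0 h, 567 and 597 at 1 h and 116 and 123 at 24 h, and CDKN1C, which inhibits several CDKs, read 131 and 128 at 0 h, 166 and 156 at 1 h and 39.9 and 33.1 at 24 h. The 2 members that were higher as a share were CDKN2A (134 and 125 at 1 h, 217 and 218 at 24 h) and FOXO3 (81.4 and 73.9 and 109.8 and 101). CDKN1A, the p53-driven inhibitor, was not called at equal medians (-0.10 log2).

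Genes of the B cell surface and its signalling lost share but not all of them lost RNA per cell. All 23 tested genes of the B cell receptor and its co-receptors were lower at equal medians, against 30.9% of all genes. The list median was -1.001 log2. Per cell 11 were lower and 7 higher, against 6.48% and 81.8% of all genes, with a median of -0.12. With 1 ERCC factor per array the per-cell counts were 17 and 3. CD72, an inhibitory co-receptor, read 3233 and 3099 at 0 h, 2958 and 2979.8 at 1 h and 636 and 652 at 24 h and fell by 1.40 log2 per cell. The signalling chains CD79B and CD79A read 3935 and 3674 at 1 h and 1083 and 1118 at 24 h, and 809 and 704 at 1 h and 252 and 266 at 24 h, losses of 1.02 and 0.65 per cell. For CD79B 1 of 2 further probe sets did not share the sign, and the mean over its probe sets was 0.04 log2 per cell. MS4A1, which encodes CD20, was among the members that lost share but not RNA per cell, at 12783 and 12507 at 1 h and 9668 and 9365 at 24 h, or -0.42 log2 at equal medians and 0.16 per cell, where the mean over its probe sets was -0.06.

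B cell transcription factors had 19 of 23 lower and 2 higher at equal medians (median -0.58 log2), against 30.9% and 33.3% of all genes. Per cell 11 were higher and 8 lower, against 81.8% and 6.48%. The per-cell balance turned to 8 higher and 11 lower with 1 ERCC factor per array. ID2, which blocks E proteins, read 2364 and 2348 at 0 h, 2707 and 2736 at 1 h and 963 and 817 at 24 h. BCL6, the repressor of the germinal centre, read 46.9 and 50.9 at 0 h, 95 and 105 at 1 h and 34.1 and 40.1 at 24 h, and its 24 h values sit at the level of the filter. EBF1 and POU2AF1, which set B cell identity, were 1.35 and 1.29 log2 lower at equal medians and 0.45 and 0.57 lower per cell. ID3 and BCL11A were higher, by 0.33 and 0.44 log2 at equal medians. PAX5, the factor that commits cells to the B lineage, was not called at equal medians (0.14 log2) and was 1.04 higher per cell.

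Antigen presentation followed the same division between share and amount. For MHC class II, 17 of 18 tested members were lower and 1 higher at equal medians (median -0.84 log2). Per cell 9 were lower and 6 higher, or 11 and 2 with 1 ERCC factor per array. Over all genes 30.9% were lower and 33.3% higher at equal medians, and 6.48% and 81.8% per cell. HLA-DOB and HLA-DOA, the chains of a modulator of peptide loading, were 1.28 and 1.21 log2 lower at equal medians. HLA-DMB, of the loading complex itself, read 4134 and 4172 at 0 h, 4616 and 4738 at 1 h and 2052 and 2115 at 24 h. RFXAP, a subunit of the complex that drives these promoters, was the member that was higher, at 207 and 191 at 0 h, 185 and 176 at 1 h and 359.6 and 369.9 at 24 h. For MHC class I, 17 of 19 were lower and 0 higher at equal medians (median -0.47 log2), and per cell 11 were higher and 3 lower, or 8 and 7 with 1 ERCC factor. The 3 lower on both scales were HLA-E (3490.2 and 3369 at 1 h, 1062 and 1106 at 24 h), TAPBPL, a peptide editor, and NLRC5, the transactivator of the class I genes (1884 and 1832 and 741 and 732).

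Interferon-stimulated genes were lower as a share nearly throughout. At equal medians 46 of 47 tested members were lower and 0 higher (median -0.88 log2), against 30.9% and 33.3% of all genes. Per cell 21 were lower and 16 higher, against 6.48% and 81.8%. With 1 ERCC factor per array 33 were lower per cell and 2 higher. IFI27 read 2677 and 2538 at 0 h, 3193 and 3105 at 1 h and 709 and 766 at 24 h. UBA7, the enzyme that activates ISG15, read 418 and 453 at 0 h, 471 and 494 at 1 h and 146 and 154 at 24 h, and the antiviral enzyme RSAD2 read 338 and 332 at 0 h, 249 and 241 at 1 h and 79.9 and 80.2 at 24 h. IFIT2, which binds viral RNA, read 2470.0 and 2412 at 0 h, 2053 and 2074 at 1 h and 715 and 732 at 24 h. Per cell these 4 were 1.29, 0.80, 0.78 and 0.68 log2 lower. The 1 member not called at equal medians was the RNA sensor IFIH1 (0.04 log2). Cytokines, chemokines and their receptors had 18 of 23 lower and 1 higher at equal medians, but per cell 9 lower and 11 higher, or 10 and 9 with 1 ERCC factor. The 1 higher as a share was CXCL10, itself an interferon-induced chemokine, at 195 and 196 at 0 h, 155 and 158 at 1 h and 293 and 284 at 24 h. Activation markers had 14 of 23 lower and 3 higher at equal medians, and per cell 6 lower and 13 higher. The 3 higher as a share were TFRC (0.60 log2), the transferrin receptor, and the receptors TNFRSF8 (0.53) and FAS (0.52).

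Other losses of share were smaller. Lysosome and autophagy genes had 22 of 34 lower and 2 higher at equal medians (median -0.40 log2), and per cell 24 higher and 8 lower. Over all genes 30.9% were lower and 33.3% higher at equal medians, and 6.48% and 81.8% per cell. The protease CTSB was 1.44 log2 lower at equal medians and 0.54 lower per cell, and MAP1LC3B, which coats autophagosomes, 1.40 and 0.50. CTSC and ATP6V1H were higher, by 0.80 and 0.40 at equal medians. Of 19 tested replication-dependent histone genes, 10 were lower and 1 higher at equal medians, and per cell 7 were lower and 8 higher. The lower ones as a share include H1-2 (456 and 466 at 1 h, 102 and 96 at 24 h) and H2BC5 (658 and 676 and 151 and 139), while H4C3 was 0.42 log2 higher. Histone genes are near-identical copies, so which copy a probe set reads is uncertain. Regulators of mRNA decay had 11 of 16 lower and 2 higher at equal medians, while per cell 4 were lower and 11 higher, or 6 and 7 with 1 ERCC factor per array. The losses of share were led by TENT5C, the antiproliferative genes BTG1 (5829.6 and 5581 and 1555 and 1580.0) and TOB1 (2834 and 2746 and 1087 and 1117), and ZFP36 (3165 and 3249 and 1025 and 1263). The 2 higher as a share, CNOT6 (0.72 log2) and CNOT6L (0.37), encode deadenylases.

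Gains after the first hour were led by genes of biosynthesis. The 15 largest rises per cell, among genes whose dimmer group averaged at least 64, ran from 3.49 to 4.19 log2. Their largest limma adjusted p was 2e-10. All 15 stood above their 0 h level on both scales, against 91% of all genes per cell and 37.7% at equal medians. They were picked with the same 24 h arrays, so that count is a description without a test. PSAT1, an enzyme of serine synthesis, read 141 and 133 at 0 h, 141 and 129 at 1 h and 1373 and 1296 at 24 h, or 4.19 log2 higher per cell and 3.30 higher at equal medians, with all 7 further probe sets in the same direction. PUS7, which makes pseudouridine in RNA, read 153 and 150.0 at 0 h, 129 and 129 at 1 h and 1229.8 and 1215 at 24 h. GEMIN5, which binds snRNAs for assembly into snRNPs, read 92.5 and 92.6 at 0 h, 65.3 and 73.1 at 1 h and 597 and 613 at 24 h. The fatty acid carrier FABP5 read 201 and 206 at 0 h, 253 and 237 at 1 h and 2159.6 and 1844 at 24 h, and UNG, which removes uracil from DNA, read 178 and 180.2 at 0 h, 151 and 152 at 1 h and 1116 and 1139 at 24 h. In each of these the 1 h arrays lie near the 0 h arrays and far below the 24 h arrays. At equal medians 4 of the 15 were called higher at 1 h against 0 h, and 2 were called lower. Over all genes these shares were 25.7% and 3.39%, so the count of higher genes is near that of all genes.

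POLR1B, a core subunit of RNA polymerase I, read 140.0 and 151 at 0 h, 134 and 121 at 1 h and 897 and 861 at 24 h, and POLR1G of the same enzyme read 106 and 114 at 0 h, 84.5 and 81.1 at 1 h and 555 and 613 at 24 h. LYAR, a nucleolar protein that promotes ribosomal RNA synthesis, read 262 and 261 at 0 h, 249.7 and 261 at 1 h and 1709 and 1711 at 24 h. PSMG1, a chaperone of proteasome assembly, read 236 and 223 at 0 h, 225 and 246 at 1 h and 1588 and 1494 at 24 h, and NDUFAF2, an assembly factor of mitochondrial complex I, read 128 and 119.8 at 0 h, 134 and 129 at 1 h and 856 and 895 at 24 h. PAICS of purine synthesis read 285 and 273 at 0 h, 317 and 299.9 at 1 h and 1903 and 1959 at 24 h. SRM, which makes spermidine, read 281 and 265 at 0 h, 303 and 307 at 1 h and 1886 and 1891 at 24 h. DTL, a substrate receptor of a ubiquitin ligase in S phase, read 186 and 186 at 0 h, 176 and 151 at 1 h and 1023 and 957 at 24 h. B4GALT2, a galactosyltransferase, read 104 and 104 at 0 h, 88.8 and 90.6 at 1 h and 828 and 679.9 at 24 h. CAMKV, a kinase-like protein of neurons, read 82.4 and 75 at 0 h, 64.1 and 63.9 at 1 h and 435 and 441 at 24 h. The groups of the comparison lie far apart in all of them, whereas the spread between duplicates is small.

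**Figure D3:**
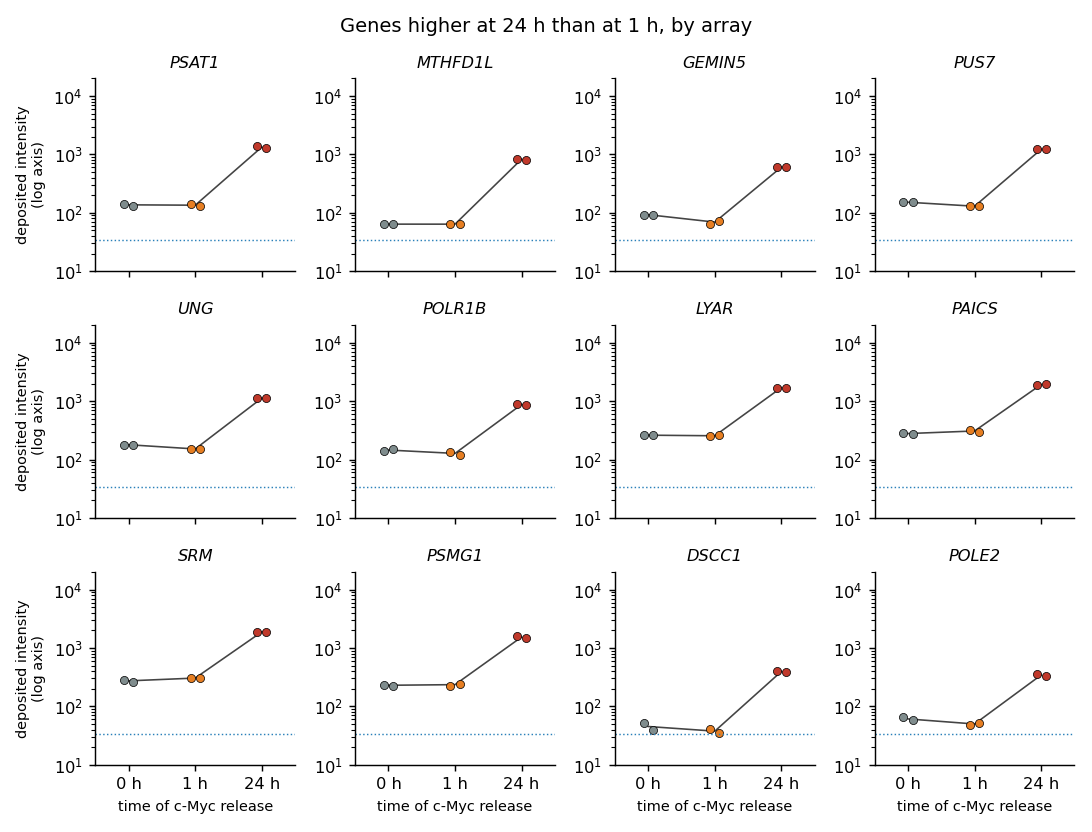
Deposited intensity (log axis) of 12 genes higher at 24 h than at 1 h, for each array at 0 h (grey), 1 h (orange) and 24 h (red), with a line through the geometric means and a dotted line at the filter intensity of 33.8. In every panel the 24 h arrays lie above the others and the 0 h and 1 h arrays lie close together.

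Ribosome assembly rose almost as a whole. Of 71 tested ribosome biogenesis genes, 69 were higher and 0 lower at equal medians, against 33.3% and 30.9% of all genes. The list median was 1.45 log2 against 0.02 for all genes. Per cell all 71 were higher, against 81.8% of all genes, with a median of 2.27 against 0.72. In the first hour the same list had a median of 0.21 at equal medians, with 33 higher and 1 lower, against 25.7% and 3.39% of all genes. With quantile normalization that median was 0.05, with 23 higher and 6 lower. By the contrast of the 2 changes, the late one exceeded the early one in 65 of the 71 genes and fell short of it in 1. The shares over all genes were 24% and 30%. The contrast sets the change from 1 to 24 h against that from 0 to 1 h, intervals of unlike length. WDR12, of a complex that processes the large subunit RNA, read 150.5 and 148 at 0 h, 151 and 163 at 1 h and 904 and 940.1 at 24 h. NOP16, a nucleolar protein, read 236 and 215 at 0 h, 347 and 307 at 1 h and 1859.7 and 1893 at 24 h, and RRP1B, an rRNA processing factor, 371 and 365 at 0 h, 376 and 385 at 1 h and 2142 and 1979 at 24 h. NOP16 had also moved in the first hour (0.69 log2 at equal medians). NOC3L and RRP1 were not called at equal medians (-0.06 and 0.12 log2), and NOC3L had risen by 0.64 in the first hour.

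RNA polymerases I and III had 28 of 35 tested genes higher and 2 lower at equal medians (median 0.60 log2). The shares over all genes were 33.3% and 30.9%. Per cell 35 of 35 were higher, against 81.8% of all genes. Beside the polymerase I subunits above, POLR3G, the polymerase III subunit of proliferating cells, read 25 and 27.5 at 0 h, 26 and 22.5 at 1 h and 230.4 and 206 at 24 h. Its 0 h and 1 h values lie below the filter, so its fitted rise of 3.16 log2 at equal medians depends on the background. POLR3GL, the paralogue of POLR3G in the same complex, was 0.76 log2 lower at equal medians, at 731 and 750.4 at 0 h, 773 and 728 at 1 h and 459 and 435 at 24 h. Its per-cell change of 0.15 turned with 1 ERCC factor per array. The other member that was lower as a share was POLR3F (-0.34 log2).

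Classic MYC targets had 30 of 31 tested members higher and 0 lower at equal medians. The list came from general knowledge of the factor, but was written with earlier results of these data known, so its counts are a description. The shares over all genes were 33.3% and 30.9%, and the list median was 1.55 log2. Per cell 31 were higher (median 2.40), against 81.8% of all genes. At 1 h against 0 h the list had 22 higher and 0 lower, with a median of 0.30, against 25.7% and 3.39% of all genes. With quantile normalization these were 9 and 3 with a median of 0.10, and as deposited 15 and 3 with 0.15. PHB1, a scaffold of the inner mitochondrial membrane, read 444 and 415 at 0 h, 466 and 439 at 1 h and 2455 and 2464 at 24 h. CAD, which starts pyrimidine synthesis, read 106 and 109.9 at 0 h, 109.7 and 125 at 1 h and 588 and 602 at 24 h. ODC1, which starts polyamine synthesis, read 818 and 768 at 0 h, 1065 and 1109 at 1 h and 3229 and 3204 at 24 h, moving at both steps (0.61 then 1.55 log2 at equal medians). CDK4, the kinase that opens G1, read 334 and 325 at 0 h, 329.6 and 309 at 1 h and 1223 and 1213 at 24 h and moved at the late step (0.10, not called, then 1.92). The 1 member not called at equal medians was CCND2, or cyclin D2, at -0.07 log2, after 0.31 in the first hour.

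Cytosolic ribosomal proteins changed by about as much as the median gene. All 66 tested genes were higher per cell, against 81.8% of all genes, with a median of 0.59 log2 against 0.72. At equal medians 17 were higher and 22 lower, against 33.3% and 30.9% of all genes, with a median of -0.004. That direction depended on the scaling: the median was -0.09 when tested genes alone set the centre and 0.10 with cyclic loess. Most of these probe sets are very bright, with a median intensity over members of 11706 at 1 h and 11750 at 24 h. The ERCC probe sets above 4000 differed by -0.50 log2 in the deposited values and by 0.07 after the curve. For the brightest of them the deposited difference was -0.24, while the curve removed -0.53. Per-cell rises of the members began at 0.28, and the part of this gap in them was not tested. With a span of 0.4 the per-cell median was 0.47. RPS27 and RPL28 were 0.28 and 0.26 log2 lower at equal medians. RPL35A, of the large subunit, stood apart at 474 and 449 at 0 h, 495 and 504 at 1 h and 1761 and 1741 at 24 h, or 1.80 log2 higher at equal medians, with its 1 further probe set in the same direction. RPL27A was read by a dim probe set, at 63.6 and 63.5 at 1 h and 126 and 127 at 24 h. Ribosomal protein genes have many processed pseudogenes, so these readings may hold signal from near-identical copies.

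Nucleotide synthesis rose through both branches. All 13 tested genes of purine synthesis were higher on both scales. Their medians were 1.81 log2 at equal medians, the highest of the 46 functional lists, and 2.70 per cell. Over all genes 33.3% were higher and 30.9% lower at equal medians, and 81.8% and 6.48% per cell. PFAS read 191 and 205 at 0 h, 195 and 197 at 1 h and 1099.6 and 1166 at 24 h and PPAT, which catalyses the first committed step, 171 and 169.8 at 0 h, 174 and 179 at 1 h and 922 and 947 at 24 h. PRPS2, which makes the ribose donor, read 235 and 274 at 0 h, 277 and 281 at 1 h and 1089 and 1108 at 24 h. At 1 h against 0 h none of these 3 had moved by more than 0.29 log2 at equal medians. In pyrimidine and deoxynucleotide synthesis 14 of 17 were higher and 1 lower at equal medians (median 1.44 log2). UMPS read 324 and 347 at 0 h, 287 and 272 at 1 h and 1376 and 1492 at 24 h and CTPS1, which makes CTP, 216 and 229 at 0 h, 222 and 219.9 at 1 h and 1079 and 1091 at 24 h. DUT, which keeps uracil out of DNA, read 615 and 574 at 0 h, 614 and 642 at 1 h and 2499 and 2416 at 24 h. The lower one was RRM2B, the p53-inducible subunit of ribonucleotide reductase, at 757 and 701 at 0 h, 781 and 817 at 1 h and 468 and 416 at 24 h, while RRM1 and RRM2 were 1.85 and 1.77 log2 higher.

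Serine and folate enzymes had 15 of 17 higher and 0 lower at equal medians (median 0.81 log2), against 33.3% and 30.9% of all genes. MTHFD1L, which releases formate from mitochondria, read 62.9 and 64.6 at 0 h, 63.3 and 64.1 at 1 h and 846 and 813 at 24 h. It rose by 4.51 log2 per cell and 3.69 at equal medians, more than PSAT1, but its 1 h mean fell just short of the intensity of 64 asked of the largest rises. AHCY, which clears S-adenosylhomocysteine, read 449.9 and 428 at 0 h, 459 and 448 at 1 h and 1499 and 1547 at 24 h, and MTHFD1 of the cytosol 285 and 298 at 0 h, 279 and 283 at 1 h and 905 and 858 at 24 h. Of 15 tested polyamine genes 7 were higher and 6 lower at equal medians, against 33.3% and 30.9% of all genes. Per cell 12 were higher and 3 lower, against 81.8% and 6.48%. The synthetic enzymes SRM, ODC1, SMS (1.15 log2) and AMD1 (0.83) were higher at equal medians. The catabolic SAT1 and PAOX were lower (-3.30 and -1.14), and so was OAZ2, an antizyme that destroys the ODC1 protein (-0.77). The others higher as a share were MTAP, EIF5A and DOHH and the others lower SAT2, DHPS and OAZ1, while AZIN1 and SMOX were not called. Per cell PAOX and OAZ2 changed by -0.24 and 0.14 log2. The sign turned for PAOX with the mean over probe sets and for OAZ2 with 1 ERCC factor per array.

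Amino acid transporters had 8 of 16 higher and 4 lower at equal medians, against 33.3% and 30.9% of all genes. SLC7A1, which imports arginine and lysine, read 80.5 and 76.8 at 0 h, 84.3 and 95.7 at 1 h and 339 and 348 at 24 h. SLC7A5, which imports leucine, read 96.1 and 85 at 0 h, 168 and 176 at 1 h and 423 and 422 at 24 h and moved at both steps, by 1.08 and then 1.28 log2 at equal medians. SLC38A2, which imports glutamine and is induced by starvation, was lower, at 2925 and 2835 at 0 h, 3110.1 and 3163 at 1 h and 1497 and 1399 at 24 h. Aminoacyl-tRNA synthetases had 16 of 19 higher and 0 lower (median 0.80 log2). FARSB, which charges phenylalanine, read 268 and 266 at 0 h, 243 and 257 at 1 h and 1179 and 1158 at 24 h. EPRS1 and LARS1, of the multi-enzyme complex, were 1.76 and 1.68 log2 higher. Translation factors had 33 of 45 higher and 3 lower (median 0.55), led by EIF2S1, the alpha subunit of eIF2, at 339 and 335 at 1 h and 1310.5 and 1240.0 at 24 h. With tested genes alone as the centre 10 were lower. The 3 lower as a share were EIF5 (-0.42 log2), EIF1 (-0.40) and EEF1D (-0.17). Per cell all 45 were higher, against 81.8% of all genes.

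Mitochondrial genes rose too, most of all those for building the organelle. In mitochondrial import and chaperones all 35 tested genes were higher on both scales, with medians of 1.21 log2 at equal medians and 2.02 per cell. Over all genes 33.3% were higher and 30.9% lower at equal medians, and 81.8% were higher per cell. TRAP1, a chaperone of the HSP90 family, read 335 and 328 at 0 h, 357 and 339.6 at 1 h and 1489.9 and 1555 at 24 h. HSPE1, the lid of the HSP60 chaperonin, read 1078 and 1059 at 0 h, 1231 and 1183 at 1 h and 4057 and 4196 at 24 h. Of 76 tested mitochondrial ribosomal proteins 72 were higher and 3 lower at equal medians (median 0.89 log2), beside the median of -0.004 for the cytosolic set. MRPS17 read 126 and 120.4 at 0 h, 126 and 109.8 at 1 h and 549.9 and 545 at 24 h, and MRPL24 263 and 229.8 at 0 h, 272 and 251 at 1 h and 1111 and 1079 at 24 h. The 3 lower were MRPL40 (-0.54 log2), MRPL54 (-0.30) and MRPS6 (-0.19). Of 71 oxidative phosphorylation subunits 60 were higher and 2 lower (median 0.56 log2). ATP5MC1, a ring subunit of ATP synthase, read 329 and 327 at 0 h, 367 and 362 at 1 h and 1749 and 1686 at 24 h, while ATP5MC2, which encodes the same mature protein, read 3021 and 2809.7 at 0 h, 3431 and 3299 at 1 h and 3069 and 2905 at 24 h. CYCS, or cytochrome c, read 1437 and 1427 at 0 h, 1539 and 1492 at 1 h and 6232 and 6298 at 24 h.

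Central carbon metabolism shifted less. The counts that follow stand beside 33.3% of all genes higher and 30.9% lower at equal medians. Glycolysis enzymes had 13 of 18 higher and 3 lower at equal medians (median 0.49 log2), led by the phosphofructokinase genes PFKM (322 and 315 at 1 h, 1002 and 1063 at 24 h) and PFKP (445 and 412 and 1047 and 1048), GPI (302 and 315 and 764 and 833) and LDHB (3222 and 3156 and 7739.6 and 7689). The glucose transporter SLC2A1 was lower, at 567 and 648 at 0 h, 708 and 744 at 1 h and 315 and 329 at 24 h, as were ALDOC (-0.58 log2) and HK1 (-0.28). Enzymes of the tricarboxylic acid cycle had 14 of 17 higher and 1 lower, IDH3G (-0.28 log2). Cholesterol and fatty acid synthesis had 14 of 22 higher and 5 lower. The elongase ELOVL6 (1.58 log2) and ACACA (1.49), the rate-limiting enzyme of fatty acid synthesis, were higher. The regulators SREBF2 (-0.58), SREBF1 (-0.35) and INSIG1 (-0.30) were among the 5 that lost share.

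Machinery of protein folding, RNA splicing and nuclear transport was higher. Proteasome genes had 30 of 33 higher and 0 lower at equal medians (median 0.62 log2), against 33.3% and 30.9% of all genes. The assembly chaperones PSMG1 and PSMG4 (2.70 and 1.84 log2) moved more than any subunit, the next being PSMB5 (1.30). Chaperonin and heat shock genes had 18 of 25 higher and 1 lower. FKBP4, a co-chaperone of steroid receptors, read 212 and 242 at 0 h, 211 and 202 at 1 h and 1239.5 and 1156 at 24 h, and the chaperonin subunit CCT2 1079 and 1064 at 0 h, 973 and 1014 at 1 h and 3317 and 3430.0 at 24 h. The lower one was HSPA4 (-0.63 log2 at equal medians, 0.16 per cell, the latter turned with 1 ERCC factor per array). Of 32 snRNP, Sm and LSm genes 29 were higher and 1 lower, SNRNP35 (-0.24). GEMIN6 (97.2 and 93.1 at 1 h, 434 and 432 at 24 h) and the methyltransferase PRMT5 (145 and 138 and 619 and 618), which modifies Sm proteins, followed GEMIN5. Of 33 nuclear pore and transport genes 32 were higher and 0 lower (median 1.09 log2). NUP35 read 129.9 and 126 at 1 h and 587 and 526 at 24 h, RANBP1 1167 and 1153 at 1 h and 4896 and 4935 at 24 h and the export factor CSE1L 535 and 527 at 1 h and 2151 and 2353 at 24 h.

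Cell cycle genes rose late. All 54 tested DNA replication genes were higher at 24 h than at 1 h on both scales. Their medians were 1.35 log2 at equal medians, where 33.3% of all genes were higher, and 2.18 per cell, where 81.8% were. In the first hour the list median was 0.06, below the 0.09 of all genes. The list then had 9 higher and 2 lower, against 25.7% and 3.39% of all genes. With quantile normalization the first-hour median was -0.05, with 2 higher and 10 lower. By the same contrast of the late with the early change, over intervals of unlike length, the late change was larger in 52 of 54. Over all genes it was larger in 24%. DSCC1, which helps load the PCNA clamp, read 52.3 and 38.9 at 0 h, 41.1 and 34.3 at 1 h and 407 and 385 at 24 h, and POLE2, a subunit of DNA polymerase epsilon, 64.4 and 57.4 at 0 h, 48.5 and 51.1 at 1 h and 360.0 and 329.7 at 24 h; the 1 h values of both are dim. MCM10, which starts the replicative helicase, read 90.6 and 95.2 at 0 h, 83.8 and 82 at 1 h and 436 and 461 at 24 h, and UHRF1, which copies DNA methylation, 195 and 206 at 0 h, 197 and 194 at 1 h and 931 and 918 at 24 h. CDC25A, the phosphatase that activates CDK2, read 93.5 and 95.1 at 0 h, 92.1 and 88.1 at 1 h and 483 and 500.3 at 24 h, and CCNE2, or cyclin E2, 58.1 and 55 at 0 h, 68.5 and 69.6 at 1 h and 267 and 239 at 24 h. Of 23 G1 cyclins, CDKs and E2F genes 19 were higher and 3 lower at equal medians, against 33.3% and 30.9% of all genes. The lower ones were the pocket proteins RBL2 (-0.88 log2) and RB1 (-0.58), and CCND3 (-0.39).

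Mitosis genes had a smaller median change. At equal medians 46 of 49 were higher and 1 lower, against 33.3% and 30.9% of all genes, with a median of 0.89 log2. MAD2L1, of the spindle checkpoint, read 340.0 and 336 at 0 h, 354 and 383 at 1 h and 1592 and 1601 at 24 h. CCNA2, or cyclin A2, read 249 and 216 at 0 h, 182 and 186 at 1 h and 601 and 619 at 24 h. SPC25, a kinetochore protein, read 58.3 and 59.3 at 0 h, 70.2 and 67.4 at 1 h and 249.7 and 226 at 24 h, and SKA3 49.2 and 51.5 at 0 h, 34.3 and 34.4 at 1 h and 171 and 171 at 24 h. The lower one was CDC25B (-0.42 log2). PLK1 and KIF20A, which peak at the end of G2 and in mitosis, were not called at equal medians (0.20 and 0.17 log2). Deposited intensities of PLK1 were 56.7 and 55.6 at 1 h and 65.9 and 64.4 at 24 h, close to the filter.

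Stress pathways had members on both sides. Of 14 tested integrated stress response genes 6 were higher and 6 lower at equal medians, against 33.3% and 30.9% of all genes. Per cell 11 were higher and 3 lower, against 81.8% and 6.48%. EIF4EBP1 (1.28 log2) and the asparagine synthetase ASNS (1.06) were higher. The inhibitor DDIT4 (-1.93), the factor DDIT3 (-1.36) and ATF4 (-0.45), which drives the pathway, were lower as a share. Of 21 unfolded protein response genes 7 were higher and 7 lower at equal medians, a share near that of all genes. Per cell 17 were higher and 1 lower, again near the shares of all genes. HERPUD1, which takes part in the disposal of misfolded proteins, read 1611 and 1502 at 0 h, 3532 and 3514 at 1 h and 1119 and 1169 at 24 h, with its peak at 1 h, while MANF, a secreted chaperone, read 464 and 419.6 at 0 h, 486 and 486 at 1 h and 1186 and 1133 at 24 h. Of 20 p53 targets 12 were lower and 3 higher at equal medians. Per cell 2 were lower and 15 higher, against 6.48% and 81.8% of all genes. The largest loss was that of TP53INP1 at 2028 and 2046 at 0 h, 1945 and 2187 at 1 h and 494 and 550.3 at 24 h. In the BCL2 family 12 of 17 were lower and 3 higher at equal medians. Per cell 3 were lower and 11 higher, against 6.48% and 81.8% of all genes. With 1 ERCC factor per array these counts were 5 and 7. Beside BCL2L11, the pro-apoptotic PMAIP1 (3953 and 4049 at 1 h, 1473 and 1499 at 24 h) was lower, and BID (532 and 504 and 716 and 687) higher at equal medians. Of 21 NF-kB genes 12 were lower and 4 higher at equal medians. Per cell 2 were lower and 17 higher, the latter a share near the 81.8% of all genes. NFKBIZ was lower on both scales, at 2111 and 2194 at 1 h and 698 and 718 at 24 h.

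**Figure D4:**
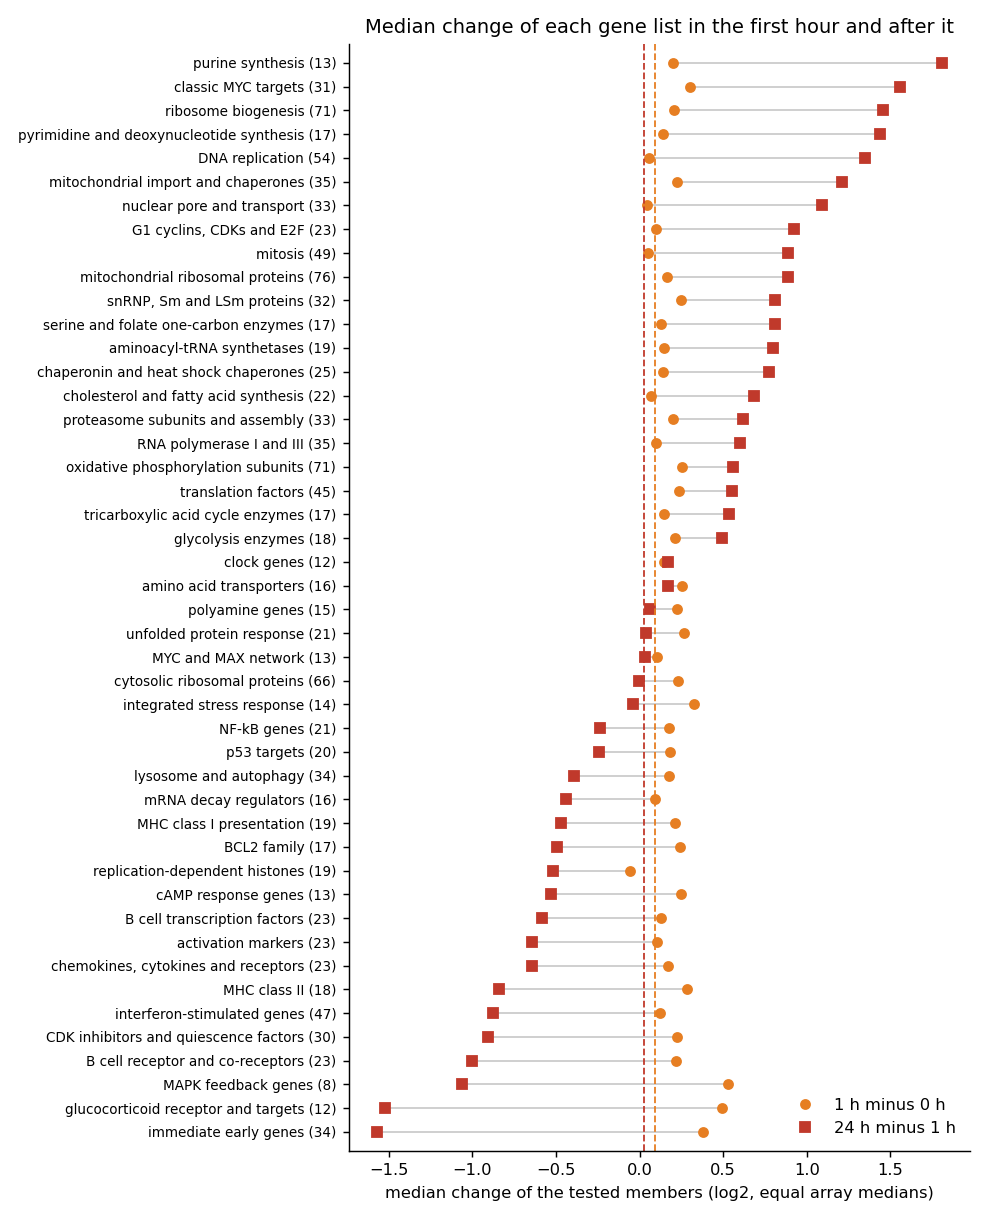
Median change of the tested members of 46 gene lists (number of members in brackets) at equal array medians, from 0 to 1 h (orange circles) and from 1 to 24 h (red squares), with dashed lines at the medians of all tested genes, 0.09 and 0.02. The circles lie between -0.06 and 0.53 log2, while the squares spread from -1.57 for immediate early genes to 1.81 for purine synthesis.

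Set side by side, the list medians of the first hour were narrow and those of the later interval wide. At equal medians they ran from -0.06 log2 for histones to 0.53 for MAPK feedback genes in the first hour. After it they ran from -1.57 for immediate early genes to 1.81 for purine synthesis. Early values depend on the centring: the median of all genes from 0 to 1 h was 0.09 log2 at equal medians and -0.06 in the values as deposited, and that of the late interval 0.02 and 0.04. Per cell, where 81.8% of all genes were called higher, every tested member was called higher in 18 lists, among them DNA replication, ribosome biogenesis, purine synthesis and cytosolic ribosomal proteins.

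**Figure D5:**
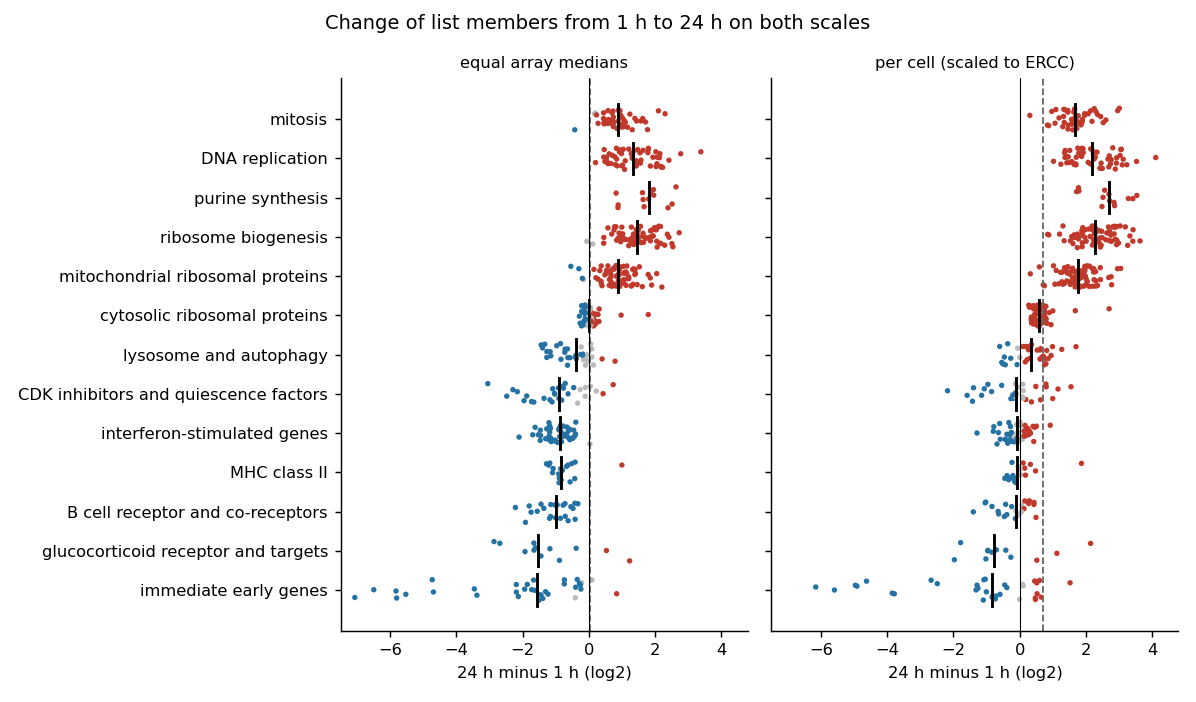
Change from 1 h to 24 h of each tested member of 13 lists at equal array medians (left) and per cell (right), in log2, with genes called higher in red, lower in blue and not called in grey, black bars at list medians and a dashed line at the median of all tested genes. Lists of growth genes lie to the right of the dashed line on both sides, cytosolic ribosomal proteins lie around it, and immediate early genes reach -7.07 at equal medians.

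The cells read as B cells at both times, within the markers listed. The summed intensity of 9 B cell markers was 41540 and 40190 at 1 h and 27450 and 27550 at 24 h. T cell markers summed to 386 and 346 at 1 h and 312 and 304 at 24 h over 10 genes, and NK cell markers to 324 and 343 and then 282 and 275 over 8, levels at which no single gene stood above the brighter background probe sets. Monocyte and macrophage markers summed to 2715 and 2647 at 1 h and 1087 and 1031 at 24 h. That sum lay mostly in LYZ and MS4A7, and CD68 read 220.5 and 215.6 at 1 h and 85.05 and 78.7 at 24 h, while CD14, CSF1R, CD163 and FCN1 read under 60 on all arrays. LYZ read 1206 and 1191 at 0 h, 1282 and 1237 at 1 h and 397 and 377 at 24 h, and MS4A7 1269.9 and 1206 at 0 h, 1055 and 1035 at 1 h and 446 and 427 at 24 h. Plasma cell markers summed to 8080 and 8141 at 1 h and 6872 and 6759 at 24 h, mostly in JCHAIN (5358 and 5434, then 3552 and 3509). At equal medians 4 of 10 were higher and 4 lower, against 33.3% and 30.9% of all genes. EPCAM, an epithelial surface protein, read 35.3 and 35.1 at 0 h, 30 and 38.9 at 1 h and 113 and 102 at 24 h. The other fibroblast and epithelial markers listed, KRT8, KRT18, KRT19 and CDH1 among them, read under 60 on all arrays. No value on these arrays is 0, and the part of other cells in any of these changes was not tested.

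Promoter sequences were read for the genes with the largest changes, since MYC binds E-boxes and the early genes of the cAMP response are known to carry CRE elements. RefSeq promoters (GRCh38.p14, 250 bases before to 50 after the start of the gene) were found for 9951 of the 12198 tested genes. They were searched on both strands for the E-box CACGTG, the CRE core TGACG and the letters TATAAA. Each motif was scored on its own, and an E-box and a CRE core can share bases. An E-box was present in 995 (10%) of all of them, in 150 of 934 (16.1%) of genes higher by at least 2-fold at equal medians and in 44 of 616 (7.14%) of those lower by at least 2-fold. The CRE core was present in 33.6%, 39.6% and 32.6% of the same sets, and the TATA letters in 6.26%, 4.39% and 10.4%. Of the 15 largest rises 14 had a promoter entry and 4 of them held an E-box. Of the 15 largest falls 10 had one, of which 1 held an E-box, 6 a CRE core and 3 the TATA letters. Shown are the rise and the fall that lead their lists, and beside each the first gene below it whose window holds a searched motif, with that motif in capitals. The windows are PSAT1 at chr9:78296875-78297174, plus strand, PUS7 at chr7:105522222-105522521, minus strand, NR4A1 at chr12:52022582-52022881, plus strand, and TENT5C at chr1:117605798-117606097, plus strand.
PSAT1: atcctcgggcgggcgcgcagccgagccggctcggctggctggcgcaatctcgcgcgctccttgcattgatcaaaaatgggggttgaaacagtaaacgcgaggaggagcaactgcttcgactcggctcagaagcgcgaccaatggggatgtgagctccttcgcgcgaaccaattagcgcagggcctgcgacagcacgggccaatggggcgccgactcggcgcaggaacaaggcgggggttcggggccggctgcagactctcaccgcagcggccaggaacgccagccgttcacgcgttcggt
PUS7: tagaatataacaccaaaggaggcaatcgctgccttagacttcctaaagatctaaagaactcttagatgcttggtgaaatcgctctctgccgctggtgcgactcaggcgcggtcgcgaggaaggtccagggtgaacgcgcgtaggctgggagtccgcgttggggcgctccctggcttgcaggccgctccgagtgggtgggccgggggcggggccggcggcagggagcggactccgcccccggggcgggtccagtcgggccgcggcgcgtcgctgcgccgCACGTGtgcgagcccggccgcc
NR4A1: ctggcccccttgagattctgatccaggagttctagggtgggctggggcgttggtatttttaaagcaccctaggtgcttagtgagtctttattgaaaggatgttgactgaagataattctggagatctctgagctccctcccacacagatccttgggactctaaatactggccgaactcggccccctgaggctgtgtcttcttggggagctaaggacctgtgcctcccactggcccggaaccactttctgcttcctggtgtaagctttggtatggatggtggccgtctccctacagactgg
TENT5C: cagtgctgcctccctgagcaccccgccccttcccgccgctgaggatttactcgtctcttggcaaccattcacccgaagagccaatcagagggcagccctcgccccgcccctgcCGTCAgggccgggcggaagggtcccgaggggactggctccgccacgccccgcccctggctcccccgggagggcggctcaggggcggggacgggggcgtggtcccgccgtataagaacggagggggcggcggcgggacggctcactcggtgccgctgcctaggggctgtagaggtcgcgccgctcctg
The window of PUS7 holds CACGTG downstream of the start, and that of TENT5C holds CGTCA, the CRE core read on the other strand. The windows of PSAT1 and NR4A1 hold none of the 3 motifs, which says only that these letters are not in these 300 bases. A match is a description of the sequence and not evidence of binding.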

How the data were processed

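The deposited values are probe set intensities, not yet in log2, that the authors obtained with MAS5 (per the submitters' processing notes). Its version, its scaling target and detection calls do not appear in the sources used here. Of 49495 probe sets, 49293 were human and 45278 of those carried 1 symbol. The probe set with the highest mean log2 value stood for its gene, and the gene was tested where that mean exceeded the 40th percentile of human probe sets (intensity 33.8). For per-cell values, a robust loess curve (span 0.7) through the ERCC probe sets was subtracted from the log2 intensities of each array. Tests used limma 3.58.1 in R 4.3.3, with all 6 arrays in 1 model, an intensity-dependent prior variance and two-sided p-values adjusted over all tested genes by Benjamini-Hochberg. A contrast of that model compared the late with the early change. The steps were tested on simulated data.

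The members, the 52 gene lists and the tests were chosen with earlier results of these data known. Named genes were MYC, the 15 largest rises and falls per cell called on both scales without overlap of the arrays (dimmer group at least 64), the 10 largest rises from 0 to 1 h at equal medians, up to 4 members of each list with the largest change, and members called against their list. Outside that rule, AMD1, ASNS, AZIN1, CCND2, CDKN1A, DOHH, EGR1, EIF5A, IFIH1, KIF20A, MAX, MS4A1, NOC3L, PAX5, PLK1, RPL28, RPS27, RRM1, RRM2, RRP1, SMOX, SMS and TEF were chosen after their values were seen. Alternatives covered the filter, the probe set used, an added 16, the trend, the replicate block, each array left out and other scalings. The number of arrays limits the precision.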

Additional observations from a re-analysis of the deposited data

How the results depend on the processing

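For 24 h against 1 h, the counts of genes called at equal medians and the count higher per cell stayed within 1.5 times under the alternatives run, and the calls for MYC kept their direction and side of the threshold. First-hour counts at equal medians did not stay within 1.5 times, from 3139 higher and 414 lower to 955 and 1195 with quantile normalization. They were 2774 and 219 without low-Myc replicate 1, 1895 and 200 without low-Myc replicate 2, 2487 and 234 without mid-Myc replicate 1 and 1942 and 275 without mid-Myc replicate 2. The count lower per cell was 1355 with 1 ERCC factor per array in place of the curve. The median per-cell change was 0.52 log2 with no filter on dim genes, 0.84 with the filter at the 60th percentile, 0.68 with the mean over probe sets, 0.60 with log2(value + 16), 0.59 with 1 ERCC factor per array and 0.76 with a span of 0.4. With each array left out in turn it ran from 0.72 to 0.73.

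Signs turned per cell with 1 ERCC factor per array for ALDOC (-0.023), HSPA4 (-0.067), KLHL15 (-0.026), OAZ2 (-0.21), POLR3GL (-0.20), RB1 (-0.016), SREBF2 (-0.021) and for the medians of activation markers (-0.084), B cell transcription factors (-0.023) and chemokines, cytokines and receptors (-0.085). They turned with the mean over probe sets for CD79B (0.044), MS4A1 (-0.064), PAOX (0.10) and RB1 (-0.38). The median of MAPK feedback genes was 0.071 and of monocyte markers 0.058 with no filter, and that of NK cell markers -0.038 with the filter at the 60th percentile. With tested genes alone as the centre the equal-median medians of polyamine genes (-0.030), the unfolded protein response (-0.049), the MYC and MAX network (-0.054) and plasma cell markers (-0.039) were below 0, from under 0.06 above it. The cause of these turns was not tested.

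The split of calls at equal medians was 3542 higher and 4396 lower when tested genes alone set the centre, or 44.6% higher against 51.8%. Across genes, the deviations of same-numbered 1 h and 24 h arrays from their group means correlated at -0.002. That value shows no shared replicate effect in these groups, but it cannot tell if the arrays were paired. With the replicate number as a block, 9973 genes were higher and 794 lower per cell, and 4095 and 3786 at equal medians. MYC was then 0.83 log2 per cell and 0.25 at equal medians. The fit on the 4 arrays gives no late-against-early value, since it has no 0 h arrays. No detection calls were given, so how far dim values hold transcript is unknown, and background probe sets read as high as 697.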
